A study of Mus musculus with 14 samples.

Results

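Keratins are the intermediate filament proteins of epithelial cells, and 53 genes of mouse (Mus musculus) carry a keratin name of the form Krt plus a number and at most 1 letter. They were picked by symbol among the 21755 protein-coding genes that the GENCODE annotation of GRCm38 (mm10) places on chromosomes 1 to 19 and X, and the keratin-associated Krtap genes were left out. Of the keratins, 27 lie on chromosome 11 and 26 on chromosome 15. The measurement was H3K27ac ChIP-seq, which maps acetylated lysine 27 of histone H3, a mark of active promoters and enhancers, in immortalized mouse embryo fibroblasts (iMEF). These cells came from mice with floxed Ash2l alleles, and in every group exon 4 of the endogenous Ash2l gene had been deleted with an inducible Cre recombinase while a lentiviral construct supplied FKBP-HA2-ASH2L, a tagged human ASH2L protein. The cell lines were clones grown out by limiting dilution, and the authors name the clone NG3 for their histone mark ChIP-seq. The sites thus rest on a single clone, and a site particular to it cannot be told apart. Controls among the 14 libraries carry the deletion and the fusion protein too. The PROTAC dTAG-13 links the FKBP tag to an E3 ubiquitin ligase and so removes the fusion protein. The groups were untreated control cells and cells with dTAG-13 for 30 min, 2 h, 4 h, 8 h or 16 h, with 2 H3K27ac libraries in each group, and 1 input library each for the control and the 16 h group.

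What was available for these genes was a single list of 122228 H3K27ac sites, given as chromosome, start and end and covering all libraries together. It holds no signal per library, so it shows where a keratin carried the mark in these cells at some point of the experiment and allows no comparison of control with dTAG-13, and the read depth behind a site is unknown. A keratin was counted as marked at its promoter when any of its annotated transcripts had its start (transcription start site, TSS) at most 1 kb from the middle of a site, and as marked in the gene body when the middle lay elsewhere between the start and the end of the gene. Shares are given with a 95% Wilson interval that covers counting error only, since neighbouring genes of 1 cluster are not independent, and no test was run.

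Keratin filaments are built from pairs of an acidic type I and a basic type II keratin. In mouse the type I genes lie together on chromosome 11 and the type II genes on chromosome 15, with the type I gene Krt18 beside its type II partner Krt8 on chromosome 15 as the exception. Each epithelium uses its own pairs, such as Krt8 with Krt18 and Krt19 in simple epithelia, Krt5 with Krt14 in basal cells and Krt1 with Krt10 in suprabasal cells of the epidermis, and a further large set forms the inner root sheath and the shaft of hair. Fibroblasts build their intermediate filaments mainly from vimentin.

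Of the 53 keratins, 6 had an H3K27ac site at a promoter, which is 11.3% (interval 5.29 to 22.6%), beside 54.7% of all protein-coding genes. They were Krt10, Krt13 and Krt19 on chromosome 11 and Krt80, Krt7 and Krt8 on chromosome 15. Counting gene bodies as well, 8 keratins carried a site, or 15.1% (7.85 to 27.1%), beside 61.6% of all protein-coding genes. The 2 added were Krt24 and Krt39. The other 45 keratins had no site near a TSS or in the gene.

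The promoter sequences of the keratins that the results turn on are shown first. They are the RefSeq windows of GRCm38.p6 from 250 bases before to 50 bases after a start. The window of Krt13 at its long transcript, the window at an internal start of Krt13, and those of Krt7 and Krt8 belong to marked keratins, whereas Krt18 (the unmarked partner of Krt8) and Krt5 (the keratin farthest from any site) stand for the unmarked ones. Capitals mark TGANTCA (AP-1) in Krt13 and GGGCGG (SP1) on either strand in Krt7. In Krt8 they mark overlapping matches to TATAAA, the core letters of a TATA box, on both strands. Krt18 and Krt5 held no match to these letters or to CCGGAA (ETS), and in this they are not typical of unmarked keratins. TATAAA stood in 17 of 32 windows of keratins without a promoter site (53.1%). Of windows not printed here, that of unmarked Krt14 held CCGGAA and that of marked Krt10 held TATAAA. The Krt8 matches begin at -3 and -1 from the start at which its window is set, so they lie at that start and not clearly before it.
Krt13 long transcript (chr11:100121517-100121816, minus strand): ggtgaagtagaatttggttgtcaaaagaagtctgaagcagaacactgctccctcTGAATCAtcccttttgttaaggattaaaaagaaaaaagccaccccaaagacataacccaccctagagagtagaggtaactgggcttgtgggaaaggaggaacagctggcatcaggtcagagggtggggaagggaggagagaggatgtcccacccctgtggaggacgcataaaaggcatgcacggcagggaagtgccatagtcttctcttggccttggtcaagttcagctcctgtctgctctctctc
Krt13 internal start (chr11:100120528-100120827, minus strand): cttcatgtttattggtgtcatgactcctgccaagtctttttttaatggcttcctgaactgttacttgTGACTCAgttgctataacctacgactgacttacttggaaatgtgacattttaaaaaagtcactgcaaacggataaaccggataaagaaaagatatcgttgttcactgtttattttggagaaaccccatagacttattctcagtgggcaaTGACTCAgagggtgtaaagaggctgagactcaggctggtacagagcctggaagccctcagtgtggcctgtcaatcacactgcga
Krt7 (chr15:101412153-101412452, plus strand): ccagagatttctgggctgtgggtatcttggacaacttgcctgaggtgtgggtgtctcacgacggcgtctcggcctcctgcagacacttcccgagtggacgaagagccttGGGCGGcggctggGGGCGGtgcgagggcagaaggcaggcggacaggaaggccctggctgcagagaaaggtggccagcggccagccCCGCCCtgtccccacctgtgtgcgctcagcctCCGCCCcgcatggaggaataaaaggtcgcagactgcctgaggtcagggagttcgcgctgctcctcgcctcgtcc
Krt8 (chr15:102004293-102004592, minus strand): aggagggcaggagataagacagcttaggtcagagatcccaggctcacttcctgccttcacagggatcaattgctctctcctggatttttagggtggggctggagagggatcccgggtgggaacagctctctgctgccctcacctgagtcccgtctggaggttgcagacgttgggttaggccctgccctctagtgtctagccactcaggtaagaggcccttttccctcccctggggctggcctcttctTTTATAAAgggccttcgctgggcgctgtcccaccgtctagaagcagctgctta
Krt18 (chr15:102027966-102028265, plus strand): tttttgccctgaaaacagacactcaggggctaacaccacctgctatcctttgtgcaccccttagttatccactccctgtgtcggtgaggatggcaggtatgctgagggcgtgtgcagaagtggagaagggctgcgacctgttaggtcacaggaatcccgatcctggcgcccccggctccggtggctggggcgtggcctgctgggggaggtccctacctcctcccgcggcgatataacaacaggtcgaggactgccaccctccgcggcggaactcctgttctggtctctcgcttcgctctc
Krt5 (chr15:101712856-101713155, minus strand): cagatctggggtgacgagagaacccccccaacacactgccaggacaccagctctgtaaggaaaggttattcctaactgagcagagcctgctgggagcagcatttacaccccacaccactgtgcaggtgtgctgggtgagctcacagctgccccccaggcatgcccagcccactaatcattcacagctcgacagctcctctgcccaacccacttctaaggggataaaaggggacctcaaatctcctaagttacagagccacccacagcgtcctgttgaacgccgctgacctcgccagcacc

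The marked stretches next to Krt7 and Krt8 lay upstream of these windows or reached only their edge, so the middle 300 bases of each site are given as well. Neither held a match to the 4 motifs. The Krt13 sites also lay outside the long-transcript window above and reached only the edge of the internal one. The capitals in Krt13 therefore stand outside its sites.
Krt7 site (chr15:101411040-101411339, plus strand): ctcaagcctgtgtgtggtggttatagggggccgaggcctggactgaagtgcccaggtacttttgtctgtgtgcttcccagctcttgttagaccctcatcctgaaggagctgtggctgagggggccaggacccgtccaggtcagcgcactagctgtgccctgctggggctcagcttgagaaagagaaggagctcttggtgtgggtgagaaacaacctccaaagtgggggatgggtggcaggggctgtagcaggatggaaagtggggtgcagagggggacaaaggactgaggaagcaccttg
Krt8 site (chr15:102004855-102005154, minus strand): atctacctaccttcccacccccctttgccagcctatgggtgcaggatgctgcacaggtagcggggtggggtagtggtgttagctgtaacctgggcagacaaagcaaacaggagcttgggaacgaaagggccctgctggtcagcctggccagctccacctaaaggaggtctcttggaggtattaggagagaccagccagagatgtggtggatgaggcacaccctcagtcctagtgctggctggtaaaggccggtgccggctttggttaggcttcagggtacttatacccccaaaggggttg

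**Figure D1:**
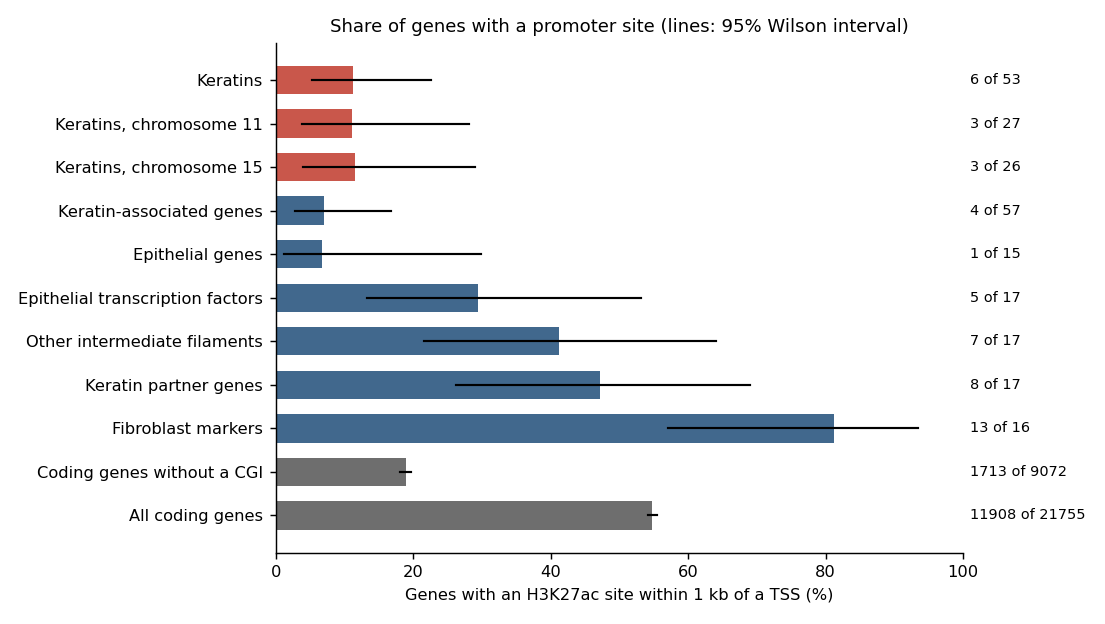
Share of genes with an H3K27ac site within 1 kb of a TSS (x axis, percent) for the keratins, the keratins of each chromosome, 6 comparison lists and all protein-coding genes (y axis), where bars are shares and black lines 95% Wilson intervals. The bars of all keratins (11.3%), chromosome 11 (11.1%) and chromosome 15 (11.5%) are nearly equal and shorter than the 18.9% of coding genes without a CpG island (CGI) and the 54.7% of all coding genes. Each of these keratin intervals contains the 18.9% and ends below the 54.7%.

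Among the keratins of simple epithelium, 3 of 6 had a promoter site, or 50.0% (18.8 to 81.2%), close to the 54.7% of all protein-coding genes: Krt7, a type II keratin of ducts and other simple epithelia, Krt8, the general type II keratin of simple epithelia, and Krt19, a type I keratin that lacks a tail domain. Krt18, the type I partner of Krt8, Krt20, a keratin of the gut epithelium, and Krt23 had none. Of the 13 suprabasal and regional keratins of stratified epithelium, 3 had a promoter site, or 23.1% (8.18 to 50.3%), below that share, namely Krt10 of the suprabasal epidermis, Krt13 of the lining of mouth and oesophagus, and Krt80, a type II keratin of differentiating cells. Their partners were not marked, since Krt1, which pairs with Krt10, and Krt4, which pairs with Krt13, had no site.

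None of the 3 basal keratins Krt5, Krt14 and Krt15 had a site near a TSS or in the gene, beside 61.6% of all protein-coding genes (54.7% at a promoter). The same held for the 6 keratins of stress and skin appendages, Krt6a, Krt6b, Krt16, Krt17, Krt42 and Krt75, and for the 7 keratins of the inner root sheath. With so few genes the limit that a count of 0 allows, roughly 3 genes of the total, is wide, at 50.0% for the 6 stress and appendage keratins and 42.9% for the 7 inner root sheath keratins. The Wilson intervals of these classes end at 39.0% and 35.4%. None of the 15 hair shaft keratins had a promoter site, which allows a share of up to 20.0%, and Krt39 was the only hair keratin with a site in its body. The 3 keratins in no such class, Krt222, Krt88 and Krt90, carried none. For these 3 and for the 3 basal keratins the Wilson interval ends at 56.1%, above the 54.7% at promoters of all genes. Their counts of 0 therefore say little.

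The sites of the 6 promoter-marked keratins differed in where they lay. The 5′ end of the principal transcript was itself covered at Krt19 and Krt80 only. At Krt19 the site chr11:100145362-100147212 was 1851 bp wide and ran from 1092 bp upstream to 758 bp downstream of the 5′ end, over the UTR and the first coding sequence. A further Krt19 site of 1083 bp, chr11:100147540-100148622, lay at the start of a longer annotated transcript. Krt80 had the widest site, chr15:101365757-101373187, which spanned 7431 bp from 3025 bp upstream to 4405 bp downstream of the 5′ end. It was as wide as or wider than 99.9% of all sites in the list. The Krt80 stretch also holds the start of the microRNA gene Mir1941 and lies within the antisense gene Gm35853, and positions alone do not tell these genes apart.

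At Krt8, Krt7, Krt10 and Krt13 the sites missed the 5′ end of the principal transcript. The Krt8 site, chr15:102004575-102005434, was 860 bp wide and lay upstream, from 952 to 93 bp before the 5′ end at 102004482 in GENCODE, whereas the RefSeq window above is set at a start at 102004342. The start of the long noncoding RNA gene Gm36026 lies within 1 kb of the middle of that site. At Krt7 the site chr15:101411037-101411342 was narrow, at 306 bp, and lay from 1365 to 1060 bp upstream of the principal 5′ end at 101412402, where a further transcript of Krt7 starts. The gene Gm671 also spans the middle of that site. At Krt10 the site chr11:99385903-99386841 covered 939 bp of coding sequence and introns, from 2523 to 3461 bp downstream of the 5′ end, at the start of a short annotated transcript and of the overlapping gene Gm11940. Krt13 had 2 sites inside the gene, chr11:100120865-100121277 of 413 bp, from 289 to 701 bp downstream of the 5′ end, and chr11:100119977-100120552 of 576 bp, from 1014 to 1589 bp downstream. With only the TSS of the principal transcript, 4 keratins were marked, as Krt10 and Krt7 dropped out.

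The 2 gene-body sites were narrower, as were sites away from promoters in the whole list. Krt24, a type I keratin of stratified epithelium, had a site of 265 bp, chr11:99281105-99281369, which lay 3893 to 4157 bp downstream of its 5′ end in coding sequence and intron. Krt39, a type I hair keratin, had a site of 230 bp in an intron, chr11:99517303-99517532. The Krt39 site was among the narrowest 25% of all sites, and the Krt24 site lay exactly at that limit of 265 bp. The narrowest site listed was 200 bp. The 8 promoter sites of keratins had a median width of 899.5 bp (range 306 to 7431), beside 678 bp for 22885 promoter sites of all genes. The 99286 other sites had a median of 369 bp. The medians were 939 bp for 5 sites on chromosome 11 and 860 bp for 3 sites on chromosome 15.

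**Figure D2:**
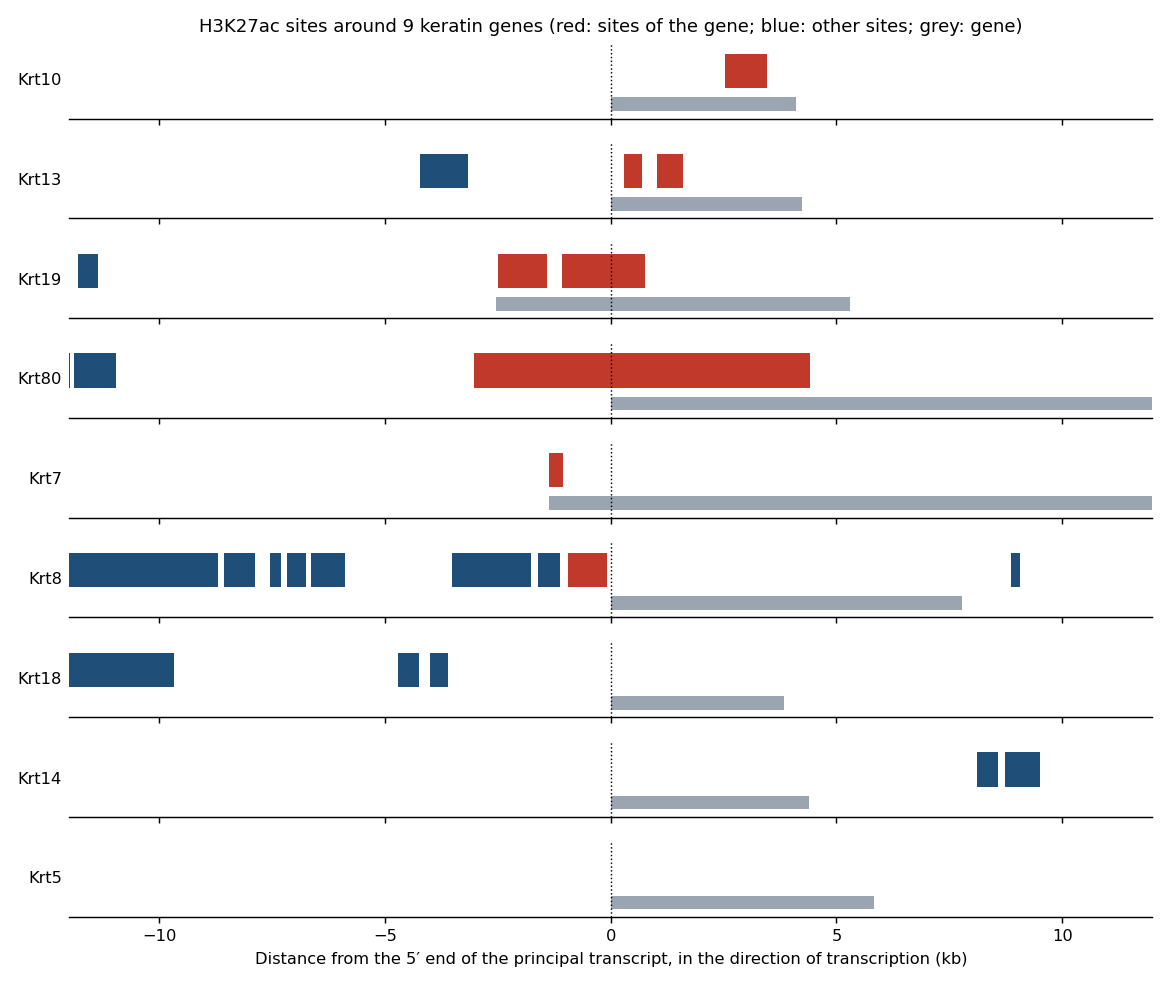
H3K27ac sites (boxes) within 12 kb of the 5′ end of the principal transcript (dotted line) of 9 keratins, with distance in kb in the direction of transcription on the x axis, 1 gene per row, red for sites of the gene, blue for other sites and grey for the gene. A red box crosses the dotted line at Krt19 and Krt80 only, the Krt8 site ends 93 bp before it, and Krt5 has no site in view.

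The partners Krt8 and Krt18 face each other across 23.7 kb, and that interval held 10 sites that together cover 11410 bp. The widest of them, chr15:102013187-102018506, spanned 5320 bp and was the second widest in either keratin cluster after the Krt80 site. Krt8 had 16 sites within 25 kb and Krt18 had 15, the highest counts among all keratins, followed by 11 for Krt19, 10 for Krt23 and 9 each for Krt80 and Krt15. The nearest site to Krt18 lay 3810 bp from its TSS. Just outside the 1 kb limit stood Krt39 at 3575 bp, Krt18 at 3810 bp and Krt26, a type I keratin of the inner root sheath, at 3902 bp, followed among keratins with no site in the gene either by the hair keratin Krt81 at 4510 bp. Just inside it stood Krt80 at 690 bp and Krt8 at 522 bp. No keratin lay between 690 and 3575 bp, so windows of 2 and 3 kb gave the same 6 genes. When sites less than 1 kb apart were joined, the middle of the joined site at Krt8 lay beyond the limit and Krt8 was no longer counted.

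The 2 chromosomal clusters were alike in the share of marked genes and unlike in where the sites lay. On chromosome 11, 3 of 27 keratins had a promoter site (11.1%, 3.85 to 28.1%), beside 59.9% of the protein-coding genes of that chromosome. On chromosome 15 it was 3 of 26 (11.5%, 4.0 to 29.0%), beside 59.7%. The difference, chromosome 15 minus chromosome 11, was 0.43 percentage points with a Newcombe interval from -18.12 to 19.32. With gene bodies included, 5 of 27 keratins were marked on chromosome 11 (18.5%, 8.18 to 36.7%) and 3 of 26 on chromosome 15 (11.5%, 4.0 to 29.0%). These intervals overlap widely, and the share over all protein-coding genes was 61.6%.

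From its first to its last keratin the chromosome 11 cluster spans 1037.1 kb (chr11:99232761-100269871) and held 55 sites, or 53.0 per Mb, beside 58.6 per Mb over the whole chromosome outside assembly gaps. This span includes 468036 bp without a keratin, between Krt40 and Krt33a, where Krtap genes lie, and its sites count in that density. The chromosome 15 cluster spans 684.6 kb (chr15:101347444-102032027) and held 26 sites, or 38.0 per Mb, beside 71.4 per Mb for its chromosome. Fewer sites on chromosome 15 covered a larger share of the cluster, 4.64% of its bases against 2.95% on chromosome 11, with median widths of 599.5 and 439 bp. Over the whole chromosomes the share was 4.47% for chromosome 15, slightly under that of its cluster, and 4.38% for chromosome 11, above that of its cluster. With sites less than 1 kb apart joined, the densities were 30.9 per Mb in the chromosome 11 cluster and 19.0 per Mb in that of chromosome 15. The 500 kb flanks held more sites per Mb than the clusters, 178.0 and 86.0 on either side of the chromosome 11 keratins and 76.0 and 160.0 beside those of chromosome 15. Of the 3 nearest other genes on each side, Smarce1, which encodes a chromatin remodelling subunit and begins 1744 bp from the chromosome 11 keratins, had a promoter site of 1830 bp and 1 body site. Beyond it Ccr7, a chemokine receptor gene, had 1 body site and Tns4, a tensin gene, had 7, both with none at a promoter. On the other side of the type I keratins Eif1, a translation initiation factor gene, had 2 promoter sites and Gast and Hap1 had no site. Before the type II keratins Nr4a1, which encodes a nuclear receptor, had 4 promoter sites and 1 body site, the autophagy gene Atg101 had 1 promoter site and 6030408B16Rik had none. After Krt18 came Eif4b with 3 promoter and 10 body sites, Tns2 with 4 and 3, and Spryd3 with 2 and 2. Most cluster sites were at no gene, with 37 of 55 (67.3%) intergenic on chromosome 11 and 18 of 26 (69.2%) on chromosome 15.

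The keratins of chromosome 15 were marked at the 2 ends of the cluster. The first part, from Krt80 to Krt81, held 10 sites, and the last part, with Krt8 and Krt18, held 16. Between them lay 514.6 kb without a site, chr15:101459416-101974034, which ranked 20 of 7184 gaps between neighbouring sites on the chromosome. This gap holds 19 of the 26 keratins of chromosome 15 whole, from Krt86, a hair keratin, to Krt78, among them Krt5, Krt1, Krt2, Krt4, Krt6a, Krt6b and the inner root sheath keratins Krt71, Krt72 and Krt73. On chromosome 11 the widest gap was 197.0 kb, ranked 72 of 6953, and it held the hair keratins Krt33a, Krt33b, Krt34 and Krt31. The other type I keratins lay on both sides of it, 12 beside 41 sites and 11 beside 14 sites. Many of the 41 sites lay beyond Krt40 in the stretch without a keratin, up to 225052 bp from the nearest keratin gene.

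**Figure D3:**
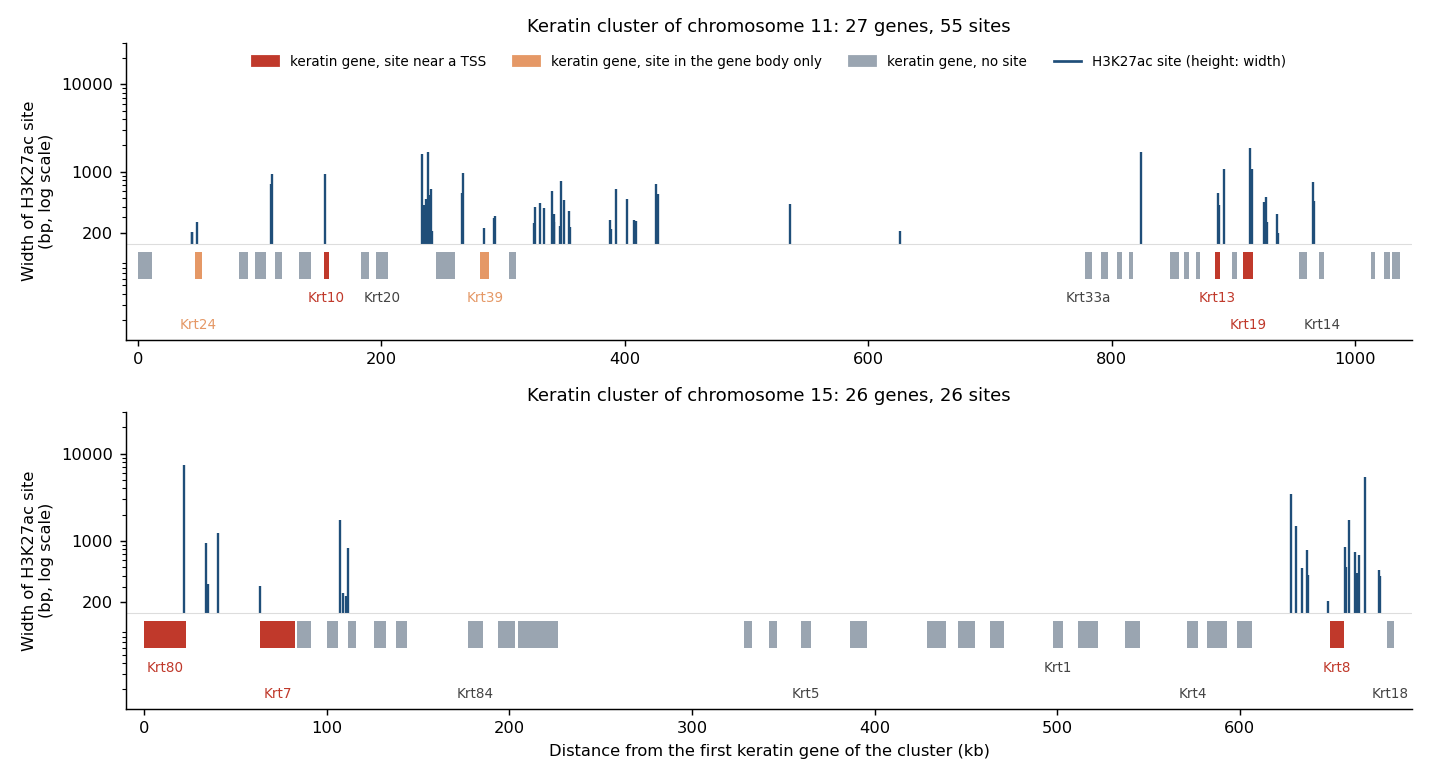
Map of the keratin clusters, with distance from the first keratin in kb on the x axis and the width of each H3K27ac site in bp (log scale) as the height of its blue line, above the genes drawn as boxes in red (site near a TSS), orange (site in the body only) or grey (no site). The 26 sites of chromosome 15 stand at the ends of the cluster, 10 on the left and 16 on the right of a 514.6 kb stretch without a site, whereas the 55 sites of chromosome 11 are spread over more of the cluster.

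The same layout appears in the distance from each keratin to the nearest site. On chromosome 11 the median distance from a TSS to the middle of the nearest site was 11.5 kb (range 0.167 to 40.2 kb), and on chromosome 15 it was 77.1 kb (0.086 to 254 kb). All protein-coding genes had a median of 0.498 kb and those without a CpG island 25.3 kb. No keratin of chromosome 11 lay more than 50 kb from a site, whereas 15 of 26 on chromosome 15 did and 11 lay more than 100 kb away. The farthest was Krt5, at 253894 bp, and its basal partner Krt14 on the other chromosome lay 6825 bp from a site. For the suprabasal pair it was 124969 bp at Krt1 and 275 bp at Krt10, measured to the start of the short Krt10 transcript. Measured to the 5′ end of the principal transcript the Krt10 distance was 2992 bp.

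**Figure D4:**
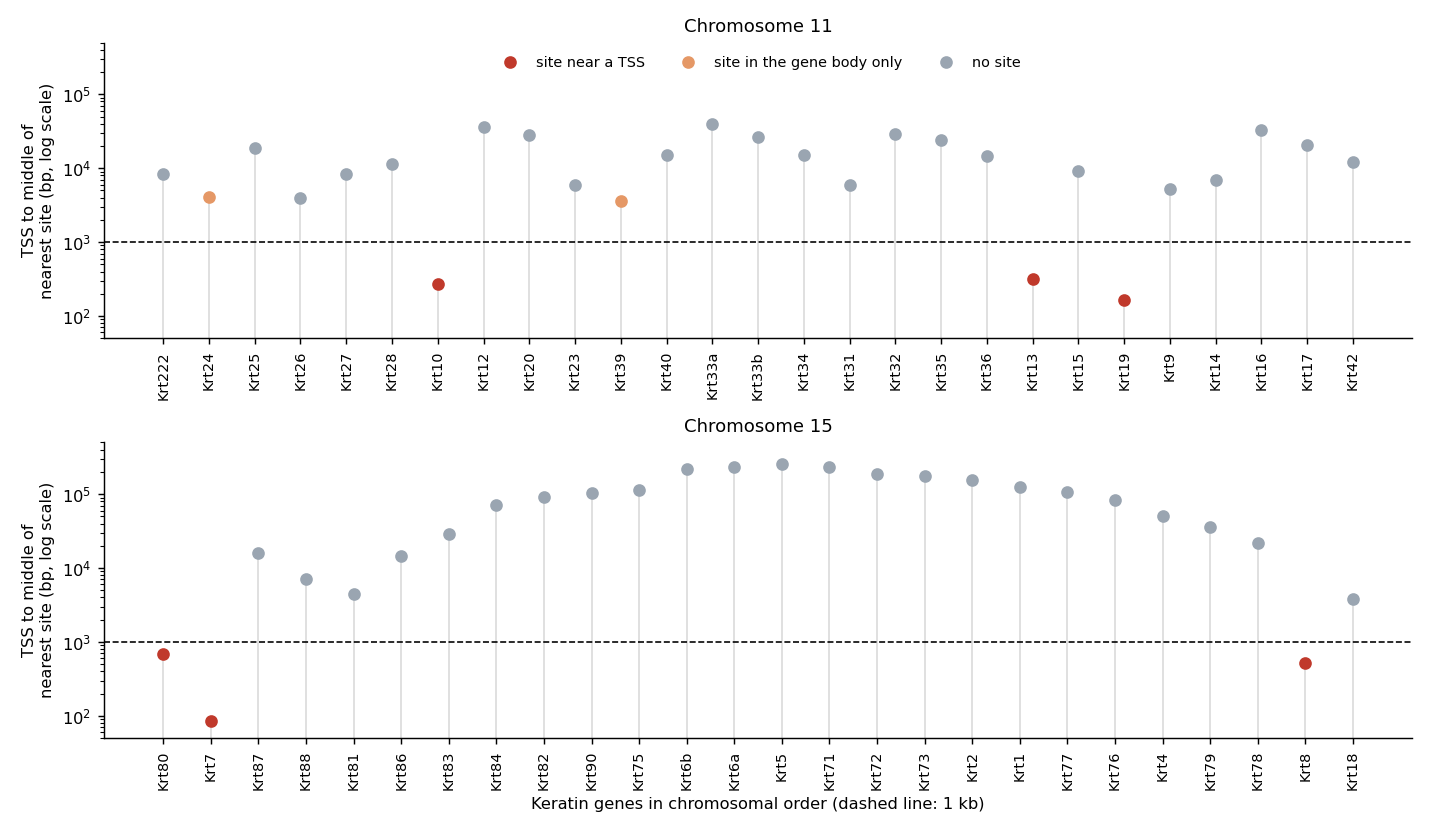
Distance from a TSS to the middle of the nearest H3K27ac site (y axis, bp, log scale) for each keratin in chromosomal order (x axis), with chromosome 11 above, chromosome 15 below and a dashed line at 1 kb. The 6 red points below the line are the keratins with a promoter site, all points of chromosome 11 stay at or under 40.2 kb, and those of chromosome 15 rise to 254 kb at Krt5 in the middle of the cluster.

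Keratin promoters are mostly poor in CpG. A CpG island (CGI), taken here as 200 bp or more in which G and C made up 50% or more of the bases and CpG reached 0.6 of the number expected from them, lay within 1 kb of a TSS in 8 of 53 keratins (15.1%), beside 58.3% of all protein-coding genes. Of these 8, Krt10, Krt19 and Krt7 had a promoter site and Krt18, Krt1, Krt42, Krt83 and Krt87 had none. The Krt10 site and the wider Krt19 site overlapped an island, whereas the Krt7 site overlapped none. Among the 45 keratins without an island, 3 had a promoter site (Krt13, Krt80 and Krt8), or 6.67% (2.29 to 17.9%), beside 18.9% of all coding genes without an island. With gene bodies, 5 of the 45 did (11.1%, 4.84 to 23.5%), beside 28.4%. The share of genes without an island that had a promoter site was 20.2% on chromosome 11 and 23.1% on chromosome 15. The part of CpG content in the low share of marked keratins was not tested. With islands of at least 500 bp, 1 keratin kept an island, Krt7.

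In the 2 kb around the principal 5′ end, GC content had a median of 56.1% in the 6 keratins with a promoter site (43.9 to 58.0%) and 50.9% in the other 47 (42.2 to 57.4%). The CpG ratio was 0.368 (0.244 to 0.412) and 0.259 (0.13 to 0.529). These ranges overlap widely. Krt18, with no promoter site, had a ratio of 0.423, above all 6 marked keratins, and Krt28 of the inner root sheath had the highest, 0.529. The Krt10 site itself was the richest in CpG among the keratin sites, with 73 CpGs and a ratio of 0.911, whereas the wide Krt80 site held 109 CpGs at a ratio of 0.195.

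**Figure D5:**
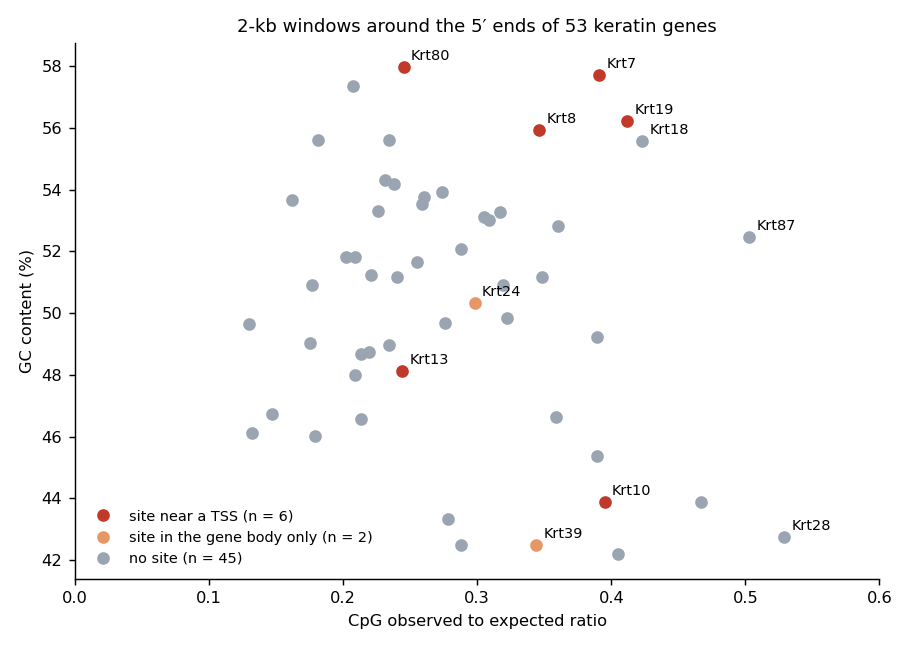
GC content (y axis, percent) against the observed to expected CpG ratio (x axis) in the 2 kb around the principal 5′ end of each of the 53 keratins, with points in red (site near a TSS, n = 6), orange (site in the body only, n = 2) or grey (no site, n = 45). Krt80, Krt7, Krt19 and Krt8 lie near the top of the GC range and Krt10 near the bottom, and Krt18 sits beside Krt19 without a site.

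Reads from near-identical gene copies are commonly filtered, so the uniqueness of each promoter was measured as the share of 50-base words in the same 2 kb that occur once in the genome. The median was 100% in the 6 keratins with a promoter site (89.1 to 100%) and 99.0% in the other 47 (70.3 to 100%). The lowest shares were those of the neighbouring copies Krt6a (70.29%) and Krt6b (70.39%), then the hair keratins Krt81 (75.97%) and Krt86 (77.82%) and the stress keratin Krt16 (76.95%), none with a site. A missing site at these 5 is therefore less certain than at Krt18 (96.36%) or Krt1 (99.49%). Repeats took a median of 6.95% of the window in marked and 10.4% in unmarked keratins.

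The promoter table gave 37 windows of 36 keratins, so the motif counts cover 36 of the 53 genes and take in neither Krt19 nor Krt80. TATAAA was the most frequent of the 4 motifs, in 19 of 37 keratin windows (51.4%), beside 13.6% of all 32851 windows. By marking it stood in 2 of 5 windows of keratins with a promoter site (40.0%) and in 17 of 32 of those without (53.1%). Those 5 windows lay outside the sites of their genes or touched only the edge of a site. GGGCGG was in 2 of 37 (5.41%), at Krt7 with 4 matches and at Krt75, beside 35.7% of all windows. TGANTCA was in 2 of 37 (5.41%), beside 7.81%, and both were Krt13 windows, with matches at -183 and -34 from the internal start and at -196 from the long one. CCGGAA was in 1 window, that of Krt14 (2.7%, beside 14.9%). Both strands were searched, and a match is a description of letters, not of binding.

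Within the 10 sites of keratins, TGANTCA occurred in 3 (30.0%), beside 21.1% of all sites, and per kb it was 0.358 against 0.43. Of these the Krt80 site held 3 matches, and the upstream Krt19 site and the Krt39 site 1 each. GGGCGG was also in 3 keratin sites (30.0%), beside 17.1% of all sites. It had 6 matches at Krt80, 5 at Krt19 and 3 at Krt10, or 1.0 per kb beside 0.676 in all sites. CCGGAA was in 3 keratin sites (30.0%), beside 11.3%, or 0.502 per kb against 0.239. The Krt10 site held 5 of its matches, and the wider Krt19 site and the Krt80 site 1 each. TATAAA was in 2 keratin sites (20.0%), beside 20.3%, or 0.358 per kb against 0.427. The 2 Krt13 sites, the Krt24 site, the Krt7 site and the Krt8 site held none of the 4 motifs.

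Other genes tied to keratins were counted by the same rule, beside the 54.7% of all protein-coding genes. The keratin-associated genes, which encode the matrix of the hair shaft, had a promoter site in 4 of 57 (7.02%, 2.76 to 16.7%): Krtap1-4, Krtap1-5, Krtap3-1 and Krtap4-2, all inside the chromosome 11 keratin cluster. Of the genes for desmosomes, hemidesmosomes and linkers that anchor keratin filaments, 8 of 17 were marked (47.1%, an interval of 26.2 to 69.0% that contains the share of all genes), among them Plec (plectin), with a site 22157 bp wide, Dst (dystonin) with 9 promoter sites and Pkp2 (plakophilin) with 2. Dsp (desmoplakin), Ppl (periplakin) and Evpl (envoplakin), which bind keratins at the desmosome and cornified envelope, had no site at all, and Jup (plakoglobin) had 5 in its body only. Among other intermediate filament genes 7 of 17 were marked (41.2%, 21.6 to 64.0%, which contains it too), with 3 promoter sites at Vim (vimentin) and 6 at Lmna (lamin A/C), and none at Des (desmin) or Nes (nestin).

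Epithelial genes such as Epcam and the claudins Cldn3, Cldn4 and Cldn7 had a promoter site in 1 of 15 (6.67%, 1.19 to 29.8%, beside 54.7% of all protein-coding genes), that of Esrp2, a splicing regulator, although 13 of the 15 have a CpG island. Cdh1 (E-cadherin) had no promoter site and 15 sites in its body. Of 17 epithelial transcription factor genes 5 were marked (29.4%, with an interval of 13.3 to 53.1% that ends just under that share), Tfap2a, Klf4, Klf5, Gata3 and Elf5. Trp63, the p63 regulator of basal keratins, had 21 body sites and no promoter site. As a check of the labelled cell type, 13 of 16 fibroblast markers had a promoter site (81.2%, 57.0 to 93.4%, above the 54.7% of all genes), with Col1a1 and Prrx1 marked in the body only and Lum not at all.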

How the data were processed

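H3K27ac ChIP-seq was done in 12 libraries of iMEF cells (6 groups of 2) beside 2 input libraries. The authors trimmed reads with Trim Galore, aligned them to mm10 with BWA, filtered them with SAMtools and called narrow peaks with MACS. The submitters' processing notes also name deepTools and DESeq2. They deposited 1 list of positions, in bp, with no count, signal or other value per library. How peaks were joined over libraries is not given in the sources used here. The narrowest site is 200 bp when starts are read as counted from 0, and positions are given from 1 here.

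TSSs came from GENCODE M21 and the sequence from GRCm38.p6. CpG islands were called outside soft-masked repeats by a running score (17 for CpG, -1 for other bases), giving 16114. The principal transcript is the one with the best APPRIS tag. Scripts used Python 3.11.15, numpy 2.4.6, pandas 2.3.3, numba 0.67.0 and matplotlib 3.10.9, and were checked on simulated data.

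Members, role classes and gene lists were chosen with earlier results of these data known. Named genes were all marked keratins, those nearest to a site without being marked at the TSS or without any site (3 each), the 3 genes flanking each cluster side, the pairs Krt5, Krt14, Krt1 and Krt10, and Krt18 as the partner of Krt8. Other keratins are named within their classes or as extremes chosen after their values were seen. Alternatives changed the window, the overlap rule, the TSS set, the narrowest sites, the joining of sites, the CpG island length and the word length.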

Additional observations from a re-analysis of the deposited data

How the results depend on the processing

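The count of keratins with a promoter site was 6 with windows of 2 and 3 kb, with any overlap, with TSSs of protein-coding transcripts and without the narrowest 25% of sites. It was 5 with the outermost 5′ end only (without Krt10) and 5 with sites less than 1 kb apart joined (without Krt8). With the principal TSS only, an alternative chosen after seeing the data, it was 4. Counting gene bodies, 8 became 9 with any overlap, which added Krt81, 7 with joined sites, and 6 without the narrowest sites, where Krt24 and Krt39 dropped out. The difference between the clusters ranged from -3.42 percentage points with joined sites to 4.13 with the outermost 5′ end, each inside the interval of the value reported. The site density fell from 53.0 to 30.9 per Mb (chromosome 11 cluster) and from 38.0 to 19.0 per Mb (chromosome 15) with joined sites. The median width of keratin promoter sites became 1301 bp with joined sites. The count of keratins with a CpG island fell from 8 to 1 with a minimum of 500 bp. The median share of unique words over all 53 keratins was 99.4% with 50 and 97.7% with 36 bases. Over 13 named keratins and 104 alternatives, the number of sites was the same in 97 and moved in 7, at Krt8, Krt13, Krt19, Krt24 and Krt39. No paired analysis was possible because sites came without values for single libraries. For the same reason the spread between libraries cannot limit any count, and a keratin without a site may carry a signal below the threshold of the peak caller.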
